A study of Homo sapiens with 12 samples.

Results

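Histone genes were followed across 2 human glioblastoma lines, U87 and U373, after arginine depletion. The genes were chosen by symbol alone, as every entry that starts with HIST1H, HIST2H, HIST3H, HIST4H, H2AF, H1F or H3F. This gave 87 of the 19824 genes in the table. Of these, 71 were clustered genes, 55 of them in the HIST1 cluster on chromosome 6, 12 in HIST2 and 3 in HIST3 on chromosome 1, and HIST4H4 on chromosome 12. The other 16 were replacement variants, of which H2AFJ lies next to HIST4H4 on chromosome 12. A filter on low values left 31 of the 71 clustered genes and 10 of the 16 variants for testing.

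Histones are the proteins around which DNA is wound: H2A, H2B, H3 and H4 form the nucleosome core, and linker histone H1 binds outside it. The clustered genes supply the bulk of new histones during S phase, and their usual mRNA has no poly(A) tail but ends just past a short stem-loop that is bound by SLBP. Replacement variants are made throughout the cell cycle from polyadenylated mRNAs, are placed into chromatin without DNA replication, and can build up in cells that stop dividing.

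U87 and U373 are established glioblastoma lines, given as wild type in the labels. Each was kept in high-glucose DMEM with serum and treated for 72 h with PBS or with BCT-100 at 1 U/ml, an arginase I joined to polyethylene glycol that breaks down arginine in the medium. Total RNA was sequenced in 12 libraries, 3 in each of the groups U87 PBS, U87 BCT-100, U373 PBS and U373 BCT-100. No label says whether the 3 libraries of a group came from separate cultures, so any p-value speaks of how these libraries vary, possibly for technical reasons alone. Whether the libraries were made with poly(A) selection or with removal of ribosomal RNA is not given in the sources used here, and the choice bears directly on mRNAs that end at the stem-loop.

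Depth ran from 18.89 M to 25.92 M reads a library, and 14462 to 14790 genes were above 0. Values are scaled reads, close to the number of reads, so that at this depth a mean of 10 stands for about 10 reads. Changes are log2 differences of the value plus 1, given with their standard error (SE) over 3 against 3 libraries, and a gene was called at a limma p under 0.05 after adjustment over all 13628 genes tested. VIM and NES, filament genes of glial and stem-like cells, were present in both lines. GFAP and SOX2 were high in U373 PBS, at means of 52220 and 3934, and near 0 in U87 PBS, at means of 3.58 and 0.652. Of 8 glial and stem cell markers, 1 was higher and 5 lower with BCT-100 in U87, and 1 was higher and 7 lower in U373. Beside this and the marker counts that follow, 33.6% of all genes tested were higher and 35.7% lower in U87. In U373 these shares were 35.6% and 35.8%. Summed leukocyte markers lay between 4.25 and 15.2 in U87, and between 22.7 and 27.6 in U373 PBS and 57.2 and 84.7 in U373 BCT-100, where CD14 was higher (1.77 ± 0.40). Summed endothelial and erythroid markers went from between 67.2 and 86.6 to between 18 and 24.2 in U373, with 3 of 3 tested lower, and from between 50 and 54.8 to between 21.8 and 26.2 in U87, with 1 of 3 lower. Summed epithelial markers lay between 18.7 and 48.2 in U87 and between 280.1 and 385.8 in U373, with 1 of 3 tested lower in each line. The part of these markers in the histone results was not tested. In bulk RNA, fewer cells of a kind and less RNA per cell cannot be told apart.

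Markers of S phase and proliferation moved with the treatment in both lines. All 23 such genes were lower in both lines, against 35.7% of all genes tested in U87 and 35.8% in U373. The median log2 change was -1.10 in U87 and -0.91 in U373. Their summed level lay between 83750 and 85770 in U87 PBS, 34340 and 35230 in U87 BCT-100, 118000 and 120200 in U373 PBS, and 49400 and 53680 in U373 BCT-100. MKI67, the Ki-67 proliferation antigen, went from 18640 ± 203 (SD, n = 3) to 1645 ± 68.7 in U87 and from 29950 ± 1210 to 4832 ± 112 in U373. RRM2 and TYMS, enzymes of nucleotide supply, changed by -2.35 and -1.10 in U87 and by -1.71 and -1.47 in U373 (log2). CDKN1A, the p21 inhibitor of cell cycle kinases, stood in the same list and was left out of these counts and sums. It was higher in U87 (0.69 ± 0.06) and lower in U373 (-0.58 ± 0.06). These values stand beside every histone change below, and their part in it was not tested.

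The stem-loop was searched in all 206694 GENCODE v29 transcripts as a 16-base consensus. It was found in 113 transcripts of 67 genes, 33 of which were histone genes of the sets above. The 7 sites below are shown because they belong to members whose levels are described below. Each is given with 5 bases on either side, and the capitals mark the stem-loop.
HIST1H2AC: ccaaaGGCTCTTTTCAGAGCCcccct
HIST1H2BD: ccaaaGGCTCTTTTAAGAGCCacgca
HIST1H2AG: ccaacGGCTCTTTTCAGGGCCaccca
HIST1H3E: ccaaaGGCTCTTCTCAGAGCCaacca
HIST1H3G: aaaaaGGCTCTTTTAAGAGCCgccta
HIST1H4H: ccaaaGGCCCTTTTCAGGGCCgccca
H2AFX: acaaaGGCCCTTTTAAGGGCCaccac
The form in HIST1H2AC was the most frequent, in 17 of the 33 members. The form in HIST1H4H was found in 5 members and that shared by HIST1H2BD and HIST1H3G in 5. The forms in HIST1H2AG, HIST1H3E and H2AFX each occurred in 1 member. H2AFX, which encodes the H2A.X protein phosphorylated at DNA breaks, was the only replacement variant among the 16 with a match.

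Promoters were matched for 62 clustered genes and 11 variants in the RefSeq table (GRCh38.p14), as windows of 250 bases before to 50 after the gene start. Searched on both strands, TATAAA was present in 66.1% of the clustered windows against 11.5% of all 35116 windows, and CCAAT, the core of the NF-Y site, in 83.9% against 34.6%. ATTTGCAT, the octamer bound by POU2F1, was in 81.25% of the 16 H2B windows, 23.9% of the other clustered windows and 1.77% of all windows. AAACACA was in all 6 windows of clustered H1 genes and in 5.64% of all windows, and TTTGAA was in 35.5% of clustered and 15.2% of all windows. None of these motifs contains another. A match is a description of the letters only.

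The 250 bases upstream of the RefSeq start are printed for 3 members, each read 5′ to 3′ on the gene's own strand, with capitals for any of the 5 motifs in either orientation. They show the gap shared by HIST1H2AC and HIST1H2BC, which went different ways in U373, the clustered linker gene with the most reads (HIST1H1C), and the variant that carries a stem-loop (H2AFX). The places are chr6:26123922-26124171 on the plus strand for HIST1H2AC, and on the minus strand chr6:26056471-26056720 for HIST1H1C and chr11:119095466-119095715 for H2AFX.
HIST1H2AC: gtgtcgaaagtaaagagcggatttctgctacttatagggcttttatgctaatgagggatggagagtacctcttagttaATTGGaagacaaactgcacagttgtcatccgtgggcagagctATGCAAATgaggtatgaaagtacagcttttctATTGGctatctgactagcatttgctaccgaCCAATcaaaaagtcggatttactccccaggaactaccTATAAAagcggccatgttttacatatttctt
HIST1H1C: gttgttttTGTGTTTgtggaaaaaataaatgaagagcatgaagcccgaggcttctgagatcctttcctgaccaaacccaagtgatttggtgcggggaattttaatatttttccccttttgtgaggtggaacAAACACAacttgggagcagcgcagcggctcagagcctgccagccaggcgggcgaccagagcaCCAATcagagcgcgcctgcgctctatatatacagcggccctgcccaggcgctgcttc
H2AFX: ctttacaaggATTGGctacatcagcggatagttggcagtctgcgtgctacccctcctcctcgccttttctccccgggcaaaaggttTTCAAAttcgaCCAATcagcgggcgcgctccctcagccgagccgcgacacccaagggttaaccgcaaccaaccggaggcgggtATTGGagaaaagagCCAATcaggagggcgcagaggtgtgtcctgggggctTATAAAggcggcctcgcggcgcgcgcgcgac
HIST1H2AC held 3 CCAAT matches, 1 octamer and 1 TATAAA, HIST1H1C 2 AAACACA matches and 1 CCAAT, and H2AFX 4 CCAAT matches with 1 TATAAA and 1 TTTGAA.

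Replacement variants took most of the histone reads in every group. The 16 variants together summed to 28950 ± 355 (SD, n = 3) in U87 PBS and 30640 ± 243 in U87 BCT-100, a ratio of 1.06. In U373 they summed to 41750 ± 215 and 41460 ± 1500, a ratio of 0.993. The 71 clustered genes summed to 3513 ± 84.4 and 4838 ± 196 in U87, a ratio of 1.38, and to 1930 ± 53.5 and 1971 ± 98.8 in U373, a ratio of 1.02. In U87 every BCT-100 library lay above every PBS library in both sums. In U373 the groups overlapped in both. As shares of all signal, the clustered genes took 0.0155% in U87 PBS and 0.0207% in U87 BCT-100, against 0.128% and 0.131% for the variants.

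The variants held individual changes in both directions within these nearly level sums. In U373 the sum includes H3F3B, its largest member, with means of 12980 ± 81.3 in PBS and 17500 ± 745 in BCT-100. Without H3F3B the variant sum in U373 was lower with BCT-100. In U87, 4 of the 10 tested variants were higher and 5 lower with BCT-100, where 33.6% and 35.7% of all genes tested were called in these directions. In U373 again 4 were higher and 5 lower, against 35.6% and 35.8% of all genes. The 4 include H2AFY2, which passed the filter through U373 BCT-100 alone. The median log2 change over the 10 was -0.36 in U87 and -0.25 in U373, beside -0.01 and 0 over all genes. H1F0 and H3F3B were higher in both lines, H2AFV, H2AFX and H3F3A were lower in both, and H1FX, H2AFJ and H2AFZ were called in opposite directions.

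**Figure D1:**
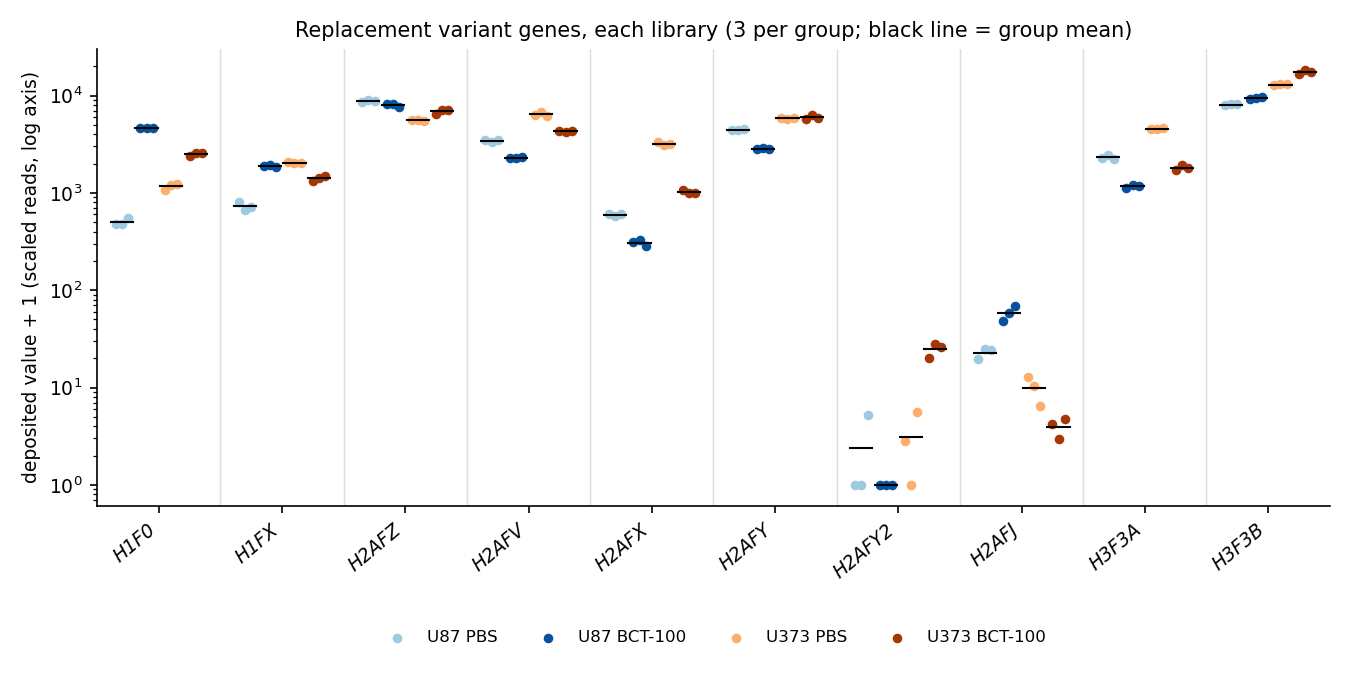
Deposited values plus 1 (scaled reads, log axis) of the 10 tested replacement variants in each of the 12 libraries, coloured by line and treatment, with a black line at each group mean. H1F0 in U87 lies between 472 and 549 in PBS libraries and between 4591 and 4622 in BCT-100 libraries, while H3F3B stays the highest or second highest variant in every group.

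H1F0, the linker variant H1.0 known to accumulate in differentiated and non-dividing cells, is a gene with 1 exon at chr22:37805093-37807436 (GRCh38). Its values were 474, 472 and 549 in U87 PBS and 4604, 4622 and 4591 in U87 BCT-100. In U373 they were 1075, 1201 and 1224 with PBS and 2377, 2590 and 2569 with BCT-100. The groups did not overlap in either line, and the treated U87 libraries were nearly identical to each other. The log2 change was 3.21 ± 0.06 in U87 (adjusted p = 2.64e-20) and 1.11 ± 0.06 in U373 (adjusted p = 5.99e-13).

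H1FX, the linker variant H1.10 at chr3:129314771-129316277, was among the members that split the lines. In U87 its values were 806, 659 and 722 with PBS and 1891, 1947 and 1844 with BCT-100, a log2 change of 1.38 ± 0.06 (adjusted p = 1.82e-14). In U373 they were 2056, 2042 and 2025 with PBS and 1333, 1409 and 1474 with BCT-100, a change of -0.54 ± 0.06 (adjusted p = 4.57e-08). U373 thus started above U87 and ended below it, with no overlap between PBS and BCT-100 in either line.

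HIST1H1C, the clustered gene for H1.2 at chr6:26055787-26056428, carried most of the clustered linker signal. Its values were 772, 770 and 822 in U87 PBS and 1257, 1494 and 1366 in U87 BCT-100, a log2 change of 0.80 ± 0.10 (adjusted p = 2.76e-06). In U373 they were 454, 438 and 426 with PBS and 324, 379 and 258 with BCT-100, a change of -0.47 ± 0.10 (adjusted p = 0.000601). HIST1H1E, the H1.4 gene, was low, with group means of 13.4 to 24.2 and was not called in either line. The remaining 4 clustered H1 genes were under the filter.

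Levels of different genes can be set side by side only per transcript length. On that scale H1F0 took a larger share of the linker histone signal with BCT-100 in both lines, by more than the spread between libraries. Values were divided by the longest annotated coding transcript. H1F0 made up 10.8% ± 0.71 (SD, n = 3) of the sum over all linker genes, tested or not, in U87 PBS and 36.5% ± 1.4 in U87 BCT-100. In U373 it made up 19.3% ± 1.2 and 42.2% ± 1.4. HIST1H1C went from 62.6% ± 1.8 to 39.6% ± 1.9 in U87 and from 26.6% ± 0.98 to 19.6% ± 3.1 in U373. H1FX was at 24.7% ± 2 and 23.3% ± 0.68 in U87 and at 52.7% ± 0.76 and 36.8% ± 2.1 in U373. These shares rest on the annotated lengths, and the HIST1H1C model is only 642 bases long, so any longer transcript would lower its share. The library selection is not given, and clustered mRNAs that end at the stem-loop may be captured less than polyadenylated ones. The shares thus describe sequenced signal, not the makeup of linker mRNA in the cells.

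**Figure D2:**
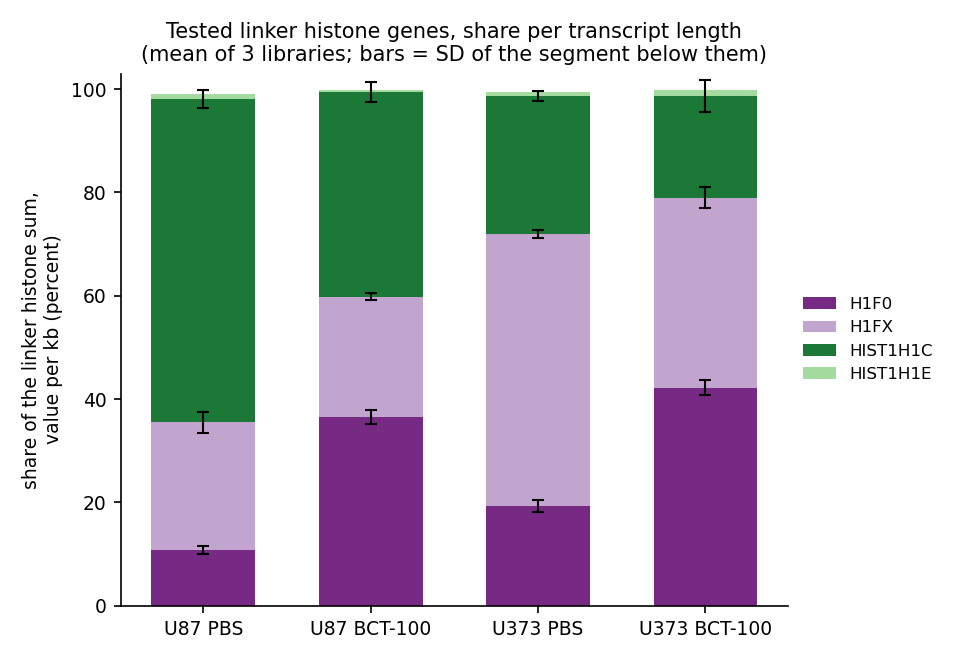
Share of each tested linker histone gene in the summed value per kb of longest coding transcript of all linker histone genes, tested or not. Shares are in percent (mean of 3 libraries a group), stacked by group, with bars for the SD of the segment below. H1F0 takes 10.8% and 19.3% in the PBS groups of U87 and U373 and 36.5% and 42.2% with BCT-100.

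The 2 genes for H3.3, the H3 variant placed by HIRA and by DAXX with ATRX, encode the same protein and changed in opposite directions. H3F3A at chr1:226061851-226072001 read 2254, 2451 and 2238 in U87 PBS and 1134, 1197 and 1185 in U87 BCT-100. Its U373 values were 4505, 4490 and 4630 with PBS and 1734, 1911 and 1801 with BCT-100. The groups were far apart, with log2 changes of -0.98 ± 0.04 (adjusted p = 4.93e-14) and -1.32 ± 0.04 (adjusted p = 3.33e-16).

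H3F3B at chr17:75776434-75785893 read 7946, 8130 and 8133 in U87 PBS and 9207, 9460 and 9702 in U87 BCT-100. For U373 the values were 12890, 13050 and 13010 with PBS and 16830, 18300 and 17350 with BCT-100. Its log2 changes were 0.23 ± 0.03 (adjusted p = 8.42e-07) and 0.43 ± 0.03 (adjusted p = 5.36e-11), small but with no overlap between groups. The sum of both genes was 10380 ± 191 and 10630 ± 274 in U87 and 17520 ± 122 and 19310 ± 834 in U373. Per kb, H3F3B supplied 70.6% ± 0.97 of H3.3 transcripts in U87 PBS and 84.7% ± 0.24 with BCT-100, and 66.3% ± 0.37 and 86.9% ± 0.077 in U373. With the median instead of the longest coding transcript, these shares were 87.8% and 94.3%, and 85.5% and 95.2%.

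H2A.Z, the variant found around gene starts, is likewise encoded by 2 genes. H2AFZ at chr4:99948086-99950388 read 8538, 9061 and 8821 in U87 PBS and 8217, 8128 and 7653 in U87 BCT-100, a log2 change of -0.14 ± 0.04 (adjusted p = 0.0023). In U373 it read 5624, 5602 and 5460 with PBS and 6465, 7033 and 7137 with BCT-100, a change of 0.31 ± 0.04 (adjusted p = 2.76e-07). H2AFV at chr7:44826791-44848083 was lower in both lines, and fell by 0.58 ± 0.03 in U87 and by 0.59 ± 0.03 in U373 (log2), from group means of 3431 to 2293 and of 6427 to 4278. The difference of its responses was 0.01 with a 95% interval from -0.10 to 0.11.

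H2AFX, the damage-linked H2A.X gene at chr11:119093854-119095467, read 602, 577 and 604 in U87 PBS and 311, 328 and 282 in U87 BCT-100. Its U373 values were 3317, 3077 and 3158 with PBS and 1058, 1007 and 1002 with BCT-100. With PBS its mean was 3184 ± 122 in U373 against 594.1 ± 15.1 in U87, and it was lower with BCT-100 in both lines, by -0.95 ± 0.06 (adjusted p = 7.14e-12) and -1.64 ± 0.06 (adjusted p = 1e-15) on the log2 scale.

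H2AFY encodes macroH2A1, a variant with a large extra domain that is linked to silent chromatin. It read 4390, 4474 and 4559 in U87 PBS and 2830, 2888 and 2841 in U87 BCT-100, a log2 change of -0.65 ± 0.03 (adjusted p = 5.43e-13). For U373 the values were 5828, 5781 and 5868 with PBS and 5753, 6339 and 5942 with BCT-100, a change of 0.04 ± 0.03 that was not called (adjusted p = 0.246). H2AFY2, for macroH2A2, was close to absent: 0, 0 and 4.25 in U87 PBS, 0 in all 3 U87 BCT-100 libraries, and 1.84, 0 and 4.55 in U373 PBS. In U373 BCT-100 it read 19.1, 26.9 and 25.1, above all other libraries, with a change of 3.29 ± 0.71 (adjusted p = 0.000345) that was 2.62 without U373 PBS replicate 2 and 2.05 with a pseudocount of 5.

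H2AFJ, the H2A.J gene known to accumulate in senescent human fibroblasts, was low and split the lines. It read 18.6, 23.7 and 23.4 in U87 PBS and 47.7, 56.8 and 67.4 in U87 BCT-100, a log2 change of 1.34 ± 0.35 (adjusted p = 0.0021). In U373 it read 12, 9.36 and 5.46 with PBS and 3.18, 1.99 and 3.72 with BCT-100, a change of -1.29 ± 0.35 (adjusted p = 0.00273). The remaining 6 variants were under the filter. H1FNT and H1FOO, linker genes of testis and oocyte, were at 0 in all libraries, and H3F3C, H2AFB1, H2AFB2 and H2AFB3 did not exceed a group mean of 10.2.

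The clustered genes held far fewer reads, and a smaller share of them was called. With BCT-100 in U87, 12 of the 31 tested genes were higher and 4 lower, leaving 15 uncalled, and their median log2 change was 0.25. For U373 the counts were 5 higher and 6 lower with 20 uncalled, and the median was -0.22. The shares called, 51.6% and 35.5%, were below the 69.3% and 71.4% of all genes tested. The genes called higher in both lines were 4 (HIST1H2AC, HIST1H2BD, HIST1H2BE and HIST3H2A) and those lower in both were 3 (HIST1H2BH, HIST1H2BJ and HIST1H3G), and HIST1H1C was called in opposite directions. These counts take near-identical copies singly. Summed, HIST2H2AA3 with HIST2H2AA4 was also called lower in both lines, and HIST2H4A with HIST2H4B was called higher in U87 alone. The 5 genes of highest mean held 55.2% to 61% of the clustered sum in each group.

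Split by histone type, the sets are small, and the shares of all genes called were 33.6% higher and 35.7% lower in U87 and 35.6% and 35.8% in U373. Among 6 tested H2A genes, 3 were higher and 0 lower in U87 and 2 and 0 in U373. That count takes HIST2H2AA3 and HIST2H2AA4, near-identical copies, singly. Their sum was lower in U87 (-0.38 ± 0.12, adjusted p = 0.00969) and in U373 (-1.38 ± 0.12, adjusted p = 3.02e-09). Among 11 H2B genes, 5 were higher and 3 lower in U87 and 2 and 4 in U373. Among 5 H3 genes, 2 were higher and 1 lower in U87 and 0 and 1 in U373, and among 7 H4 genes 1 was higher and 0 lower in each line. For H4 too, the sum of the near-identical HIST2H4A and HIST2H4B was higher in U87 (0.70 ± 0.11, adjusted p = 6.05e-06), with 0.06 ± 0.11 in U373. Summed H2A went from 863.6 ± 39 to 1200 ± 23.9 in U87 and from 542.6 ± 16.4 to 705.7 ± 27.6 in U373, without overlap in either line. Summed H3 was 128.9 ± 10.4 and 118.2 ± 21.5 in U87 and 98.9 ± 8.25 and 77.2 ± 18 in U373.

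**Figure D3:**
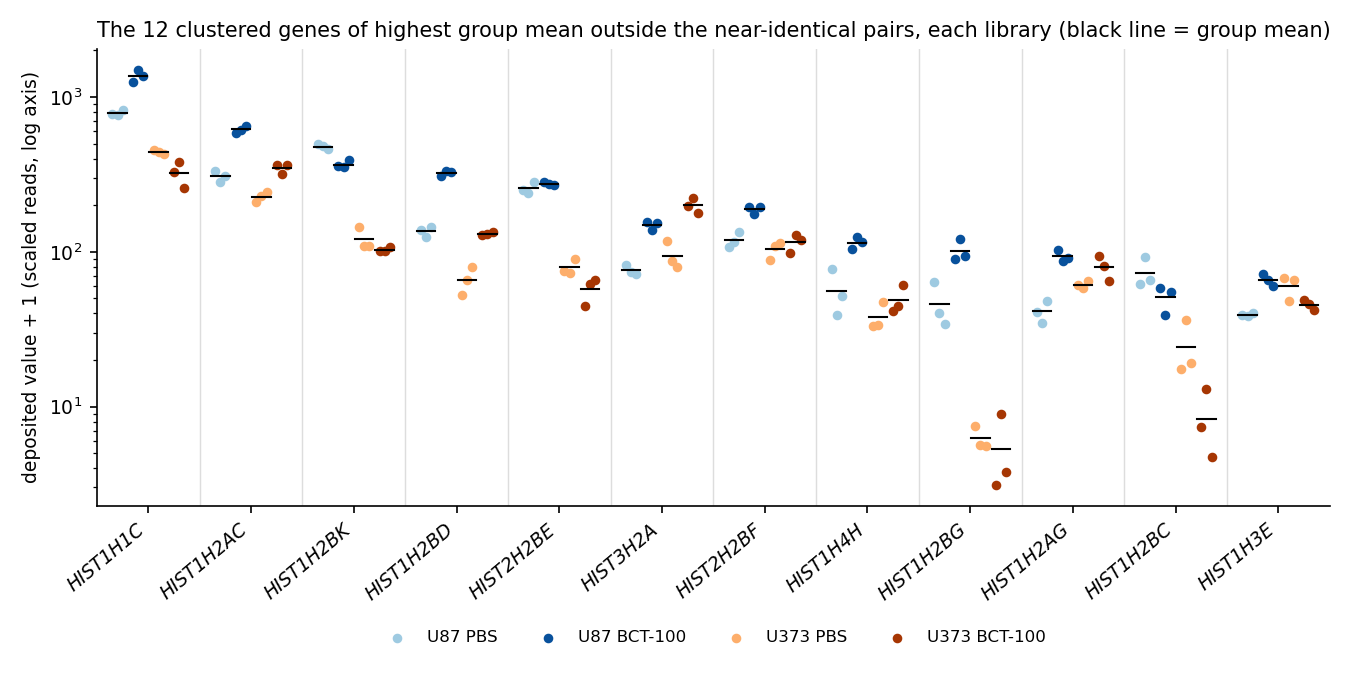
Deposited values plus 1 (scaled reads, log axis) of the 12 clustered genes of highest group mean outside the near-identical pairs, in each of the 12 libraries, with a black line at each group mean. HIST1H2AC, HIST1H2BD and HIST3H2A are higher with BCT-100 in both lines, and HIST1H1C is higher in U87 and lower in U373.

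HIST1H2AC at chr6:26124145-26139116 was, counted singly, the clustered H2A gene with the most reads. It read 334, 282 and 308 in U87 PBS and 584, 615 and 650 in U87 BCT-100, a log2 change of 1.00 ± 0.09 (adjusted p = 3.14e-09). Its U373 values were 207, 229 and 242 with PBS and 363, 319 and 361 with BCT-100, a change of 0.62 ± 0.09 (adjusted p = 2.89e-06). HIST3H2A, an H2A gene of the small HIST3 cluster, read 81.2, 72.8 and 71.3 in U87 PBS and 155, 138 and 153 in U87 BCT-100, a change of 0.98 ± 0.15 (adjusted p = 1.07e-05). For U373 the values were 116, 86.6 and 78.2 with PBS and 196, 221 and 178 with BCT-100, a change of 1.09 ± 0.15 (adjusted p = 2.46e-06). Both genes were apart between treatments in both lines.

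HIST1H2AG, also an H2A gene, read 40.1, 33.7 and 46.8 in U87 PBS and 102, 85.7 and 90.2 in U87 BCT-100, a log2 change of 1.19 ± 0.20 (adjusted p = 1.75e-05). In U373 it read 59.9, 57.3 and 63.6 with PBS and 92.5, 79.7 and 63.3 with BCT-100, a change of 0.36 ± 0.20 that was not called (adjusted p = 0.107). U373 BCT-100 replicate 3 overlapped the PBS libraries there, and without it the gene was called (adjusted p = 0.0397).

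HIST1H2BD had the smallest p of the H2B genes in U87 and was higher in both lines. It read 138, 123 and 145 in U87 PBS and 307, 334 and 326 in U87 BCT-100, a log2 change of 1.25 ± 0.14 (adjusted p = 1.46e-07). Its U373 values were 51.6, 64.4 and 79.1 with PBS and 127, 129 and 133 with BCT-100, a change of 1.01 ± 0.14 (adjusted p = 2.67e-06). HIST2H2BF was called in U87 alone, at 107, 115 and 133 with PBS and 192, 176 and 194 with BCT-100 (0.67 ± 0.15, adjusted p = 0.000423), with 0.15 ± 0.15 in U373. HIST1H2BG went from a mean of 44.9 ± 15.6 to 100.5 ± 16.9 in U87 (1.19 ± 0.38, adjusted p = 0.00926), while its U373 means were 5.22 and 4.29, not called (adjusted p = 0.384) except without U373 BCT-100 replicate 2 (adjusted p = 0.0419).

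Other H2B genes were lower or held their level. HIST1H2BK, the H2B gene with the most reads in U87, read 494, 481 and 458 with PBS and 356, 350 and 390 with BCT-100, a log2 change of -0.39 ± 0.11 (adjusted p = 0.00489). For U373 the values were 145, 108 and 108 with PBS and 101, 99.6 and 106 with BCT-100, a change of -0.22 ± 0.11 not called (adjusted p = 0.0916) and that passed without U373 PBS replicate 2 (adjusted p = 0.0411) or replicate 3 (adjusted p = 0.046). HIST1H2BH was lower in both lines, by -1.14 ± 0.34 (adjusted p = 0.00528) and -1.26 ± 0.34 (adjusted p = 0.00233), from means of 40.3 to 18.2 and of 30.4 to 12.4. HIST2H2BE read 250, 237 and 281 in U87 PBS and 283, 273 and 269 in U87 BCT-100, which was not called (0.10 ± 0.15, adjusted p = 0.558).

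In U373, HIST2H2BE read 73.7, 71.9 and 89.1 with PBS and 43.5, 61.1 and 65.1 with BCT-100, a log2 change of -0.48 ± 0.15 (adjusted p = 0.00855). That call was lost without U373 BCT-100 replicate 1 (-0.30, adjusted p = 0.0653). HIST1H2BE was called higher in both lines from few reads, with means of 5.95 and 15.3 in U87 and 8.75 and 30.2 in U373. Its U87 change of 1.52 ± 0.54 was 0.81 without U87 PBS replicate 3 (adjusted p = 0.143) and was not called without U87 BCT-100 replicate 3 (adjusted p = 0.0729). HIST1H2BJ was lower in both lines, but its U87 groups overlapped, and its adjusted p of 0.0373 became 0.211 without U87 PBS replicate 1, 0.068 without U87 PBS replicate 3, 0.281 without U87 BCT-100 replicate 1 and 0.052 without U87 BCT-100 replicate 3, with values down to -0.39. It was also not called with no filter (0.0555) or with each line fitted alone (0.0616). In U373 it went from 0.0188 to 0.0673 without U373 PBS replicate 1 and to 0.0509 without U373 BCT-100 replicate 3.

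Among the H3 genes, HIST1H3G at chr6:26269405-26271815 had the lowest log2 change of the called histone genes in both lines. It read 39.1, 27.3 and 30.8 in U87 PBS and 3.11, 2.71 and 1.09 in U87 BCT-100, a change of -3.38 ± 0.53 (adjusted p = 9.01e-06). In U373 it read 9.21, 18.7 and 10 with PBS and 0, 2.99 and 2.79 with BCT-100, a change of -2.40 ± 0.53 (adjusted p = 0.000398) that was -1.75 without U373 BCT-100 replicate 1. The treated libraries hold only a few reads, and with a pseudocount of 5 the changes were -2.36 and -1.34, still called. HIST1H3E read 38.1, 37.3 and 39.4 in U87 PBS and 70.4, 64.9 and 58.7 in U87 BCT-100 (0.74 ± 0.21, adjusted p = 0.00335). Its U373 values were 66.3, 46.8 and 64.6 with PBS and 47.7, 44.8 and 41 with BCT-100, which was not called (-0.39 ± 0.21, adjusted p = 0.0963), or was called without U373 PBS replicate 2 (adjusted p = 0.032). HIST1H3H was higher in U87, from 6.43 ± 2 to 18.3 ± 8.1 (adjusted p = 0.00758, and 0.0558 without U87 BCT-100 replicate 1).

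Counted singly, H4 genes gave few calls. Most clustered H4 signal lay in the near-identical HIST2H4A and HIST2H4B, at 516.2 of 689.8 in U87 BCT-100. Their sum was called higher in U87 (0.70 ± 0.11, adjusted p = 6.05e-06) and was not called in U373 (0.06 ± 0.11, adjusted p = 0.62). HIST1H4H read 76.3, 38.2 and 51 in U87 PBS and 102.6, 124.5 and 114.1 in U87 BCT-100 (1.08 ± 0.25, adjusted p = 0.000621), and 0.36 ± 0.25 in U373 was not called (adjusted p = 0.203). HIST1H4E was called in U373, from 5.84 ± 2.12 to 12.7 ± 1.93 (adjusted p = 0.0327), but not without U373 PBS replicate 2 (0.0887), U373 PBS replicate 3 (0.0988), U373 BCT-100 replicate 1 (0.0947) or U373 BCT-100 replicate 2 (0.0557). HIST1H4C had a U87 change of -0.62 ± 0.40 that was not called (adjusted p = 0.183) except without U87 BCT-100 replicate 3 (adjusted p = 0.0349).

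Clustered genes of a type share nearly the same coding sequence, so how RSEM divided reads between them bears on all of them, and 3 pairs of near-identical copies were uncertain singly. HIST2H2AA3 read 175, 38.1 and 185 in U87 BCT-100 while HIST2H2AA4 read 130, 269 and 109 in the same libraries, and their sums were 304.4, 306.6 and 293.5. Summed, the pair went from 392.8 ± 10.3 to 301.5 ± 7.04 in U87, a log2 change of -0.38 ± 0.12 (adjusted p = 0.00969), and from 144.1 ± 24 to 54.4 ± 5.31 in U373, a change of -1.38 ± 0.12 (adjusted p = 3.02e-09). HIST2H4A and HIST2H4B summed went from 318 ± 41.6 to 516.2 ± 38.9 in U87 (0.70 ± 0.11, adjusted p = 6.05e-06) and from 221.8 ± 10.6 to 232.5 ± 28.4 in U373 (0.06 ± 0.11, adjusted p = 0.62). HIST2H3A and HIST2H3C listed the same values and were not called for BCT-100 in either line, singly or summed. HIST2H2AA3 alone was not called in U373 (adjusted p = 0.0721) except without U373 BCT-100 replicate 2 (adjusted p = 0.00798). The sums were fitted after the split between copies had been seen.

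Many H2A and H2B genes lie head to head and start from a shared stretch of DNA, and 11 such pairs lay within 500 bases of each other. In 4 of these pairs both genes were tested. HIST1H2AC and HIST1H2BC start 218 bases apart around the HIST1H2AC sequence printed above, and in U373 HIST1H2AC was higher while HIST1H2BC was lower, at 16.6, 35.1 and 18.2 with PBS and 6.36, 12 and 3.72 with BCT-100 (-1.59 ± 0.36, adjusted p = 0.000555). In U87 HIST1H2BC had means of 72.2 and 49.7 and was not called (-0.53 ± 0.36, adjusted p = 0.203), though it was with each line fitted alone (0.041) and by voom (0.0262). HIST1H2AG was higher in U87 beside HIST1H2BJ, with means of 60.5 and 35.6. HIST3H2A and HIST3H2BB were both called higher in U87, HIST3H2BB from 9.44 ± 1.55 to 25.2 ± 3.57. In the HIST1H2BG and HIST1H2AE pair, HIST1H2AE stayed near the filter at means of 3.7 to 15.5 and was not called.

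The 40 clustered genes under the filter included 6 at 0 in all libraries, and none had a group mean over 11.6. Detection differed by the annotated end of the transcript. In 23 clustered genes at least 1 annotated transcript ran on for 100 bases or more past the stem-loop, and 21 of these were tested. In 9 every transcript with a stem-loop ended nearer than that, and 5 were tested. One of them, HIST1H2BD, also has a longer transcript of 2 exons and 789 bases in which no stem-loop was found. In 39 no stem-loop was found in the annotated transcripts, and 5 were tested, among them HIST1H1C and HIST1H2BK. The median of the highest group mean was 43.3, 12.5 and 2.13 in these classes. An annotation that stops at the coding end holds no stem-loop by its construction, and longer models hold more reads, so per kb the medians were 24.2, 30.4 and 6.62, and the order of the classes that run on or end near was turned. Of the 21 tested genes that run on, 10 were higher and 2 lower in U87, and 4 were higher and 4 lower in U373. Of the 5 that end near, 1 was higher and 0 lower in each line, and of the 5 with none found, 1 was higher and 2 lower in U87 and 0 and 2 in U373. The shares of all genes called in these directions were 33.6% and 35.7% in U87 and 35.6% and 35.8% in U373. The counts by transcript end take near-identical copies singly. Summed, HIST2H2AA3 with HIST2H2AA4, which end near, was called lower in U87 (-0.38 ± 0.12) and in U373 (-1.38 ± 0.12). HIST2H4A with HIST2H4B, which run on, was called higher in U87 (0.70 ± 0.11) and not called in U373 (0.06 ± 0.11).

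**Figure D4:**
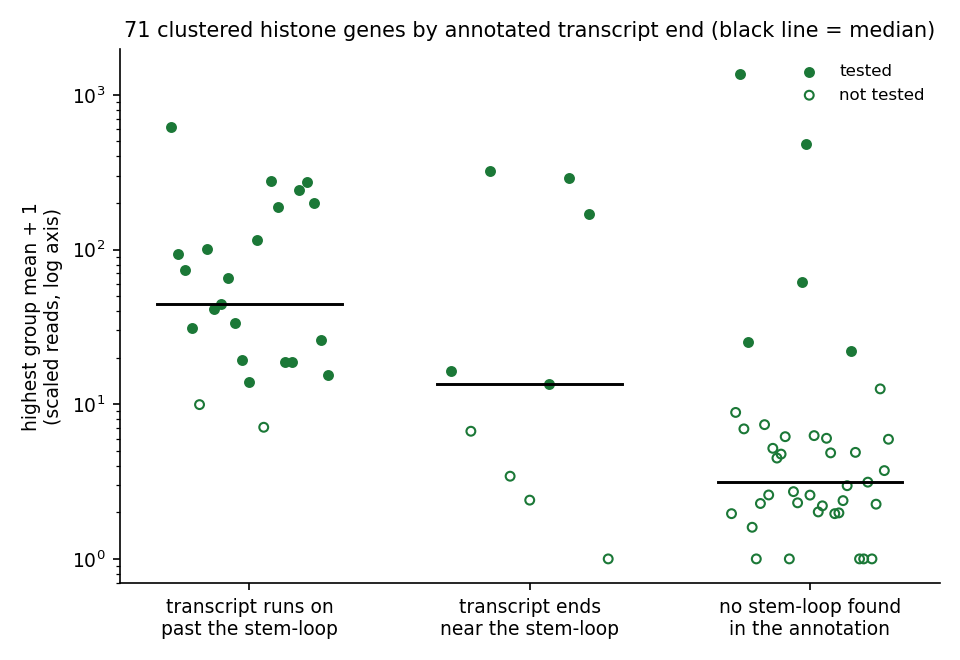
Highest of the 4 group means plus 1 (scaled reads, log axis) for each of the 71 clustered genes, by whether an annotated transcript runs on at least 100 bases past the stem-loop, ends nearer, or holds none, with a black line at the median. Filled points are tested genes, which are 21 of 23, 5 of 9 and 5 of 39.

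With PBS alone the lines differed in both classes. U87 was higher than U373 in 14 and lower in 3 of the 31 tested clustered genes, against 43% and 40.1% of all genes tested and 83.1% in either direction, with a median log2 difference of 0.84 beside 0.03 over all genes. Among the 10 variants, 2 were higher in U87 and 7 lower, with a median of -0.80. HIST1H2BK was higher in U87, at 477.8 ± 18.5 against 120.1 ± 21.2 (adjusted p = 1.22e-12), and HIST2H2BE by 1.70 ± 0.15 (adjusted p = 1.87e-09). H2AFX was lower in U87 by -2.42 ± 0.06 (adjusted p = 7.31e-19), H1FX by -1.49 ± 0.06 (adjusted p = 2.02e-15) and H1F0 by -1.23 ± 0.06 (adjusted p = 5.53e-14). H2AFZ and H2AFJ were the variants that were higher in U87, by 0.66 ± 0.04 (adjusted p = 8.59e-13) and 1.25 ± 0.35 (adjusted p = 0.00277).

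The difference of the responses, U87 minus U373, was called for 7 of 31 clustered genes and 9 of 10 variants, against 56.8% of all genes tested. All 7 clustered genes had the higher response in U87, against 26.1% of all genes called in that direction. They were HIST1H1C (1.27 ± 0.15), HIST1H3E (1.13 ± 0.29), HIST1H2AC, HIST1H2AG, HIST1H2BG, HIST2H2BE and HIST2H2BF. Near-identical copies are counted singly here. Fitted as sums, HIST2H2AA3 with HIST2H2AA4 (0.999 ± 0.174, adjusted p = 5.85e-05) and HIST2H4A with HIST2H4B (0.64 ± 0.15, adjusted p = 0.00111) also had the higher response in U87. The sum of HIST2H3A and HIST2H3C was not called (adjusted p = 0.894). Of the variants, H1F0 (2.10 ± 0.08, adjusted p = 3.24e-14), H1FX (1.92 ± 0.08, adjusted p = 1.17e-13), H2AFJ, H2AFX and H3F3A had the higher response in U87, and H2AFY, H2AFZ, H3F3B and H2AFY2 the lower, against 30.7% of all genes in that direction. For HIST1H2BD and HIST3H2A, higher in both lines, the differences were 0.25 (95% interval -0.18 to 0.67) and -0.11 (-0.57 to 0.35).

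**Figure D5:**
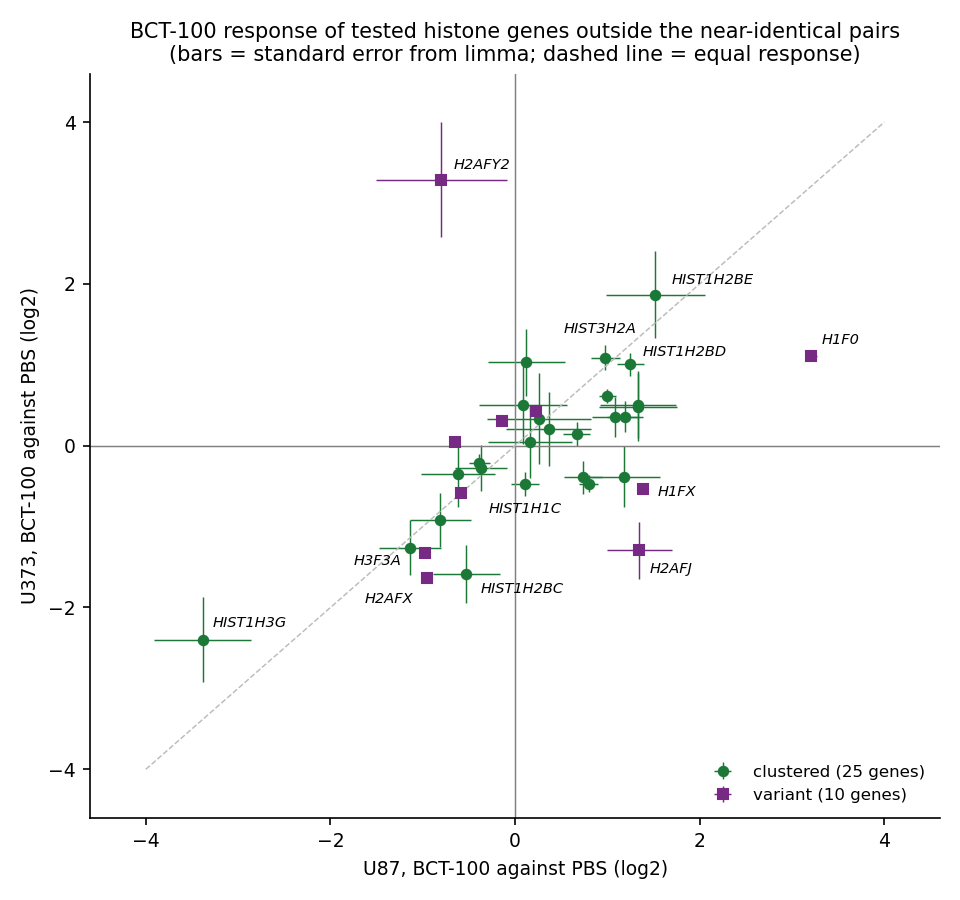
Log2 change with BCT-100 in U87 (horizontal) against U373 (vertical) for the 25 tested clustered genes outside the near-identical pairs and the 10 tested variants, with SE bars and a dashed line at equal responses. H1F0 lies at 3.21 and 1.11, HIST1H3G at -3.38 and -2.40, and H1FX and H2AFJ in the quadrant of higher in U87 and lower in U373.

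The genes that make, process and place histones were counted from lists chosen for their roles. Of 25 genes for transcription and 3′ processing of histone mRNA, 11 were higher and 7 lower in U87 and 13 higher and 7 lower in U373, with medians of 0.10 and 0.14. Over all genes tested, 33.6% were higher and 35.7% lower in U87 and 35.6% and 35.8% in U373, with medians of -0.01 and 0. SLBP, which binds the stem-loop, was lower in both lines, from 1346 ± 37 to 1027 ± 56.3 (-0.39 ± 0.05, adjusted p = 1.45e-07) and from 2102 ± 54.8 to 1484 ± 26.3 (-0.50 ± 0.05, adjusted p = 3.17e-09). CCNE2, a cyclin of the kinase that activates NPAT, was lower by -1.41 ± 0.11 and -1.95 ± 0.11. CCNE1, the other E cyclin, did not follow it in U87, with means of 209.1 ± 18.5 in PBS and 242.4 ± 16.2 in BCT-100. In U373 its means were 284.4 ± 17.4 and 224.3 ± 13.7. NPAT, the coactivator of the clusters, had changes of 0.03 and 0.13 and was not called in either line.

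Transcription factors of histone promoters were among those that were higher. HINFP, a factor of H4 genes, went from 166.5 ± 12 to 396.2 ± 22.3 in U87 and from 411.8 ± 13.2 to 821.8 ± 87.5 in U373. POU2F1, which binds the octamer, went from 452.2 ± 13.8 to 838.7 ± 62.9 and from 678.2 ± 39.6 to 1516 ± 13.7. ZNF473, a zinc finger protein of the U7 processing complex, was higher by 0.83 ± 0.06 and 1.47 ± 0.06, and YY1 by 0.53 ± 0.03 in U373 with 0 ± 0.03 in U87. ZCCHC11, which adds uridines to RNA ends, was higher by 0.86 ± 0.04 and 0.36 ± 0.04. CASP8AP2, a processing factor at histone loci also called FLASH, was lower in U87 (-0.24 ± 0.05) and was not called in U373 (-0.05 ± 0.05).

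Of 28 histone chaperones and exchange factors, 8 were higher and 18 lower in U87 and 9 higher and 13 lower in U373, with medians of -0.28 and -0.08, beside the same shares and medians over all genes. CHAF1A, the large subunit of the CAF-1 complex behind the fork, went from 1510 ± 20.1 to 838.3 ± 44.4 and from 1557 ± 36.9 to 956.4 ± 75.8, and ASF1B, which hands H3 and H4 to it, went from 1523 ± 51.4 to 762.3 ± 14.9 and from 1538 ± 61 to 739.3 ± 90. TONSL, a reader of new H4, changed by -1.71 ± 0.09 and -1.40 ± 0.09. HAT1, which acetylates new H4, changed by -0.41 ± 0.04 and -0.62 ± 0.04. Other members tied to replication did not follow them: RBBP4, the small CAF-1 subunit, was higher in both lines (0.21 ± 0.03 and 0.08 ± 0.03), and NASP, an H3 and H4 chaperone, was higher in U87 (0.36 ± 0.04) and lower in U373 (-0.09 ± 0.04).

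HIRA, the H3.3 chaperone, split the lines, from 1696 ± 58.7 to 1113 ± 85 in U87 (-0.61 ± 0.06) and from 760.4 ± 40.1 to 878.6 ± 6.97 in U373 (0.21 ± 0.06), and the difference of -0.82 ± 0.08 was called (adjusted p = 2.91e-08). DAXX was lower in both, by -0.30 ± 0.06 and -0.46 ± 0.06. Its partner ATRX was not lower in either line. ATRX means were 3053 ± 81.2 and 3261 ± 236 in U87, with overlap, and 3897 ± 99.8 and 4487 ± 287 in U373, without overlap. Higher in both were SET (0.78 ± 0.03 and 0.90 ± 0.03) and the nucleolar chaperone NPM1 (0.36 ± 0.03 and 1.21 ± 0.03). SRCAP, an H2A.Z exchange ATPase, was lower by -0.73 ± 0.04 and -0.25 ± 0.04. EP400, another such ATPase, went the other way, without overlap between treatments in either line. Its means went from 3899 ± 115 to 4940 ± 84.3 in U87 and from 2376 ± 172 to 2903 ± 69.3 in U373.

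CENPA, the centromeric H3 variant that the symbol rule does not take in, was lower in both lines. It read 396, 461 and 492 in U87 PBS and 71.5, 61.3 and 54.5 in U87 BCT-100 (-2.83 ± 0.11, adjusted p = 9.91e-15). For U373 the values were 524, 518 and 516 with PBS and 182, 214 and 186 with BCT-100 (-1.42 ± 0.11, adjusted p = 5.59e-10). HJURP, its chaperone, changed by -2.94 ± 0.07 and -1.88 ± 0.07. The histone-fold proteins CENPW and CENPT of the centromere were also lower in both lines, from 528.6 ± 56.1 to 123.9 ± 24.7 and from 454.1 ± 12.8 to 258.6 ± 46 in U87, and from 608.5 ± 6.17 to 225.6 ± 23.2 and from 701.9 ± 58.6 to 430.4 ± 17.4 in U373. TBP, the TATA-binding protein, was the only other tested gene of that list of 7, has no histone fold, and was higher by 0.18 ± 0.07 and 0.37 ± 0.07. PCNA, the sliding clamp of DNA replication, changed by -0.51 ± 0.05 and -0.71 ± 0.05.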

How the data were processed

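The authors deposited one table with a value per gene and library, which is a signal on a linear scale. Per the submitters' processing notes, reads were handled with STAR and RSEM on hg38, with versions not given in the sources used here. The values show that the deposited signal is an RSEM estimate divided by a scaling factor per library: after undoing it, 85.52% to 86.95% of values above 0 were whole within 0.001. Of 19844 entries, 20 exact repeats were dropped, and 42 of those kept share a symbol. Groups came from the treatment label, since the protocol label gives the PBS control for every sample.

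The design had assumed a count model as an alternative, but the values are not counts, so limma 3.58.1 (R 4.3.3) with a trended, robust prior was used on log2 of the value plus 1, for genes that reached 10 in 3 or more libraries. All 12 libraries and 4 group means were fitted, leaving 8 residual degrees of freedom. Adjustment of p-values (Benjamini and Hochberg) ran over the 13628 genes tested in each of 4 contrasts. The fit was tested on simulated data. Positions, transcripts and lengths came from GENCODE v29 (GRCh38), and promoters from RefSeq (GRCh38.p14).

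The members, lists and tests were chosen with earlier results of these data known. Every member may be named. Values for each library were due for members with a mean of at least 500 in a group and for the 6 of smallest p in each class and line. From the lists, named genes come from the 4 of smallest p in each line and from SLBP, NPAT, CASP8AP2, ASF1B, CHAF1A, HIRA, DAXX, CENPA, PCNA, MKI67 and CDKN1A. SOX2, CCNE1, RBBP4, NASP, EP400 and ATRX were named, and CDKN1A was taken out of the S phase counts, after values were seen. Alternatives were other scalings, pseudocounts of 0.5 and 5, other filters, each line alone, a replicate block, leaving out each library, a fold threshold of 1.5, voom and summed copies. Intervals are at 95%.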

Additional observations from a re-analysis of the deposited data

Results flagged for a closer look

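For 16 of the 41 tested histone genes the BCT-100 response differed between the lines by limma's test of the difference, where 56.8% of all genes tested were called. The values that follow are U87 minus U373 on the log2 scale. Among the linker genes the difference was 2.10 for H1F0, 1.92 for H1FX and 1.27 for HIST1H1C. Among the H2A variants it was 2.64 for H2AFJ, 0.68 for H2AFX, -0.44 for H2AFZ, -0.69 for H2AFY and -4.08 for H2AFY2. For the H3.3 genes it was 0.34 for H3F3A and -0.20 for H3F3B.

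Among the clustered core genes the difference was 1.57 for HIST1H2BG, 1.13 for HIST1H3E, 0.83 for HIST1H2AG, 0.58 for HIST2H2BE, 0.52 for HIST2H2BF and 0.38 for HIST1H2AC. The value for H2AFY2 rests on few reads, in a gene that passed the filter through U373 BCT-100 alone. It was -4.81 with a pseudocount of 0.5, -2.35 with 5, -3.29 without U87 PBS replicate 3 and -3.42 without U373 PBS replicate 2. H2AFJ was at 1.99 with a pseudocount of 5. HIST1H2BG had an adjusted p of 0.0504 without U87 PBS replicate 3 and 0.05 without U87 BCT-100 replicate 2. HIST2H2BE lost the call without U87 PBS replicate 1 or 2, U87 BCT-100 replicate 1, U373 PBS replicate 3 or U373 BCT-100 replicate 1, with adjusted p from 0.0534 to 0.0754. HIST2H2BF lost it without any of U87 PBS replicates 1 and 2, U87 BCT-100 replicates 1 and 3, U373 PBS replicates 2 and 3 and U373 BCT-100 replicate 1, with adjusted p from 0.0677 to 0.104. Of the uncalled differences, HIST1H3G was called without U373 BCT-100 replicate 1 (-1.64, adjusted p = 0.0343) and with a pseudocount of 5 (adjusted p = 0.0278), HIST1H4H without U87 PBS replicate 1 (adjusted p = 0.0195) or U373 BCT-100 replicate 3 (adjusted p = 0.0466), and HIST1H2BC without U373 BCT-100 replicate 2 (adjusted p = 0.0166).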

How the results depend on the processing

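Apart from the fold threshold, and where the gene was tested, the alternatives run kept 13 of 16 clustered and 9 of 9 variant calls in U87, 8 of 11 and 9 of 9 in U373, 4 of 7 and 9 of 9 in the difference, and 10 of 17 and 8 of 9 between the lines in PBS. Tested against a fold of 1.5, the calls in U87 were 4 clustered higher, 1 clustered lower, 2 variants higher and 2 lower. In U373 they were 2, 2, 2 and 2, in the difference 1 clustered and 4 variants, and in PBS 9 clustered. With no filter, 8 clustered genes were lower in U87 and 11 differed. With a value of at least 50, 2 were lower in U87, 3 higher in U373 and 9 differed in PBS. For these settings the count follows from the stricter call rule or from fewer or more genes tested.

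Without the largest member the summed ratios were 1.27 (clustered, U87), 1.11 (clustered, U373), 1.01 (variant, U87) and 0.833 (variant, U373). As shares of nuclear-encoded signal, those in U87 were 1.3 and 1. Leaving out each library gave 11 to 12 clustered higher and 3 to 4 lower in U87, 4 to 6 and 5 to 8 in U373, 3 to 4 variants higher in U373, 5 to 8 clustered and 8 to 9 variants in the difference, and 15 to 18 clustered in PBS. The summed ratios ran from 1.35 to 1.41, 1.01 to 1.05, 1.05 to 1.06 and 0.976 to 1.01.

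No sign of pairing was seen between same-numbered libraries: their correlations ran from -0.07 to 0.023, and 2 of 12 libraries correlated best with their own number. Such correlations cannot show whether the libraries were paired by design. With a replicate block the clustered calls were 12 higher and 3 lower in U87 and 13 in PBS, and H2AFJ was not called in PBS (adjusted p = 0.195). The edgeR and DESeq2 alternatives were not run, because the values are not counts. The voom fit and the summed copies were added after seeing the data. At this depth, genes with means under about 10 cannot be ranked, and near-identical copies and processed pseudogenes can share reads.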
